A study of Homo sapiens with 32 samples.

Results

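The genes described here are the transcription factor genes FOS, FOSB, FOSL1, FOSL2, JUN, JUNB, JUND, EGR1, EGR2 and EGR3. They were chosen by name, with earlier results of these data known. All 10 were present among the 48804 genes of the count table, each under a single Ensembl identifier. Their mRNA was measured by RNA sequencing in MDA-MB-468, an established human triple-negative breast cancer cell line. Cells received PBS (control), 0.5 µM salinomycin (Sal, an ionophore antibiotic), 15 µM dasatinib (Das, an inhibitor of Src and ABL family kinases), or both drugs at those doses (S + D), for 24 h or 72 h. Each of the 8 conditions had 4 libraries, 32 in all, and in each condition 3 libraries carried a replicate number and 1 did not. The methods describe drug stocks in DMSO while the control is labelled PBS, so solvent and drug cannot be told apart.

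FOS and JUN proteins pair through a leucine zipper to form AP-1, which binds the DNA motif TGANTCA and related sites. JUN proteins can also pair with each other, whereas FOS proteins need a partner, so the available dimers depend on which family members a cell makes. EGR1, EGR2 and EGR3 are zinc finger factors that bind GC-rich DNA. Many of these genes are immediate early genes: growth factor receptors, Src family kinases and the RAS to ERK cascade switch on their transcription within minutes, without new protein synthesis, through SRF and ELK proteins at CArG boxes and through CREB at TGACGT elements. In epithelial tumours, FOSL1 is known as the AP-1 subunit that ERK signaling sustains most strongly.

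The promoters of EGR1, FOS and JUN are shown because at 72 h EGR1 and FOS fell together in S + D cells while JUN rose. Each line gives the 250 bases before the RefSeq transcription start, 5′ to 3′ on the gene's strand, taken from the GRCh38.p14 promoter table and placed in GRCh37 by an exact match at chr5:137800918-137801167 (EGR1, plus strand), chr14:75745281-75745530 (FOS, plus strand) and chr1:59249720-59249969 (JUN, minus strand). Capitals mark letters that matched a CArG box, TGANNTCA, TGACGT or GCGNGGGCG on either strand.
EGR1: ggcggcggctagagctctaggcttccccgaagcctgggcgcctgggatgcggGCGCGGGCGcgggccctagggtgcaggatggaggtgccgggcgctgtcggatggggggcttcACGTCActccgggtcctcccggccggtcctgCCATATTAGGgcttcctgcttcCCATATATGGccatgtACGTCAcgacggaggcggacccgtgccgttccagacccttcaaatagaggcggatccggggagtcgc
FOS: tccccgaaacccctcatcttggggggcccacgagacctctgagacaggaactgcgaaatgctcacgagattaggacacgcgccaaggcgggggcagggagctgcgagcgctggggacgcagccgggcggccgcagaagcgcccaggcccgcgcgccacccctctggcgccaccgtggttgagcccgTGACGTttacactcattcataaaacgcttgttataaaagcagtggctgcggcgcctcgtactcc
JUN: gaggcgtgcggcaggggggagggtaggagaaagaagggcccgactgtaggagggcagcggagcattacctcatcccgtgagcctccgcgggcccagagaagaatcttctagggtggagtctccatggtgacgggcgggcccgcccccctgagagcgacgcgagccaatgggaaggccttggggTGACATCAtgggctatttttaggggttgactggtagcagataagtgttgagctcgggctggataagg

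The EGR1 window held 2 CArG boxes, from -105 to -96 and from -83 to -74 relative to the start, as well as TGACGT from -136 to -131 and from -67 to -62 and GCGNGGGCG from -198 to -190. The FOS window held a TGACGT from -64 to -59, and the JUN window a TGANNTCA from -67 to -60. Of the 10 genes, 8 had a window in the RefSeq table (FOSL1 and EGR3 had none), with 10 windows in all. TGACGT was in 6 of these 10 windows (EGR1, EGR2, FOS, FOSB, FOSL2 and JUND) against 7.10% of all 35114 windows of this length. CArG boxes were in 2, of EGR1 and EGR2 (1.16% of all windows). TGANNTCA was in 2, of JUN and JUND (10.1%), and in JUND 1 match also overlaps TGACGT. GCGNGGGCG was in 1, of EGR1 (8.41%), and TGANTCA in none (6.57% of all windows). These matches describe letters in the window and not factor binding, which was not measured. Bases outside the windows were not searched, so a motif missing here can lie further from the start.

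All of the genes are protein-coding, and values come from read counts per gene. In GRCh37 the plus strand carries FOS at chr14:75745529-75748933, FOSB at chr19:45971253-45978437, FOSL2 at chr2:28615315-28640184, JUNB at chr19:12902300-12904129 and EGR1 at chr5:137801168-137804992. The minus strand carries FOSL1 at chr11:65659520-65668044, JUN at chr1:59242517-59249720, JUND at chr19:18390504-18392432, EGR2 at chr10:64571756-64578927 and EGR3 at chr8:22545172-22550993.

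The libraries held 25692561 to 42769687 counts (median 33301486.5). Values are given as CPM, the count of a gene scaled to 1000000 counts of its library after TMM scaling of the library totals. EGFR was abundant (median 4754 CPM), and KRT5, KRT8, KRT16, KRT17, KRT18, EPCAM and CDH1 were present. KRT14 averaged 15.7 CPM, KRT6B 11.1 CPM and KRT6A 1.74 CPM in controls. Over all libraries, treated ones included, their lowest values were 0.141 CPM for KRT14 and 0 CPM for KRT6A and KRT6B. PGR was at 0 in every control library, while ESR1 averaged 6.34 CPM in controls. ERBB2 averaged 120 CPM there, GRB7 41.2 CPM, GREB1 1.11 CPM and TFF1 0.00295 CPM. Among markers of other cell types, PTPRC, CD3E, COL3A1, DCN and HBB never exceeded 5 counts, whereas COL1A1 and CD14 were detected. The list of 9 such markers summed to 29.3 to 64.8 CPM in the control libraries and 72.6 to 124 CPM with S + D at 72 h. Of 12 basal epithelial markers, 8 were lower and 1 was higher with S + D at 72 h (27.9% and 27% of all genes), and their part in the results below was not tested. In bulk RNA, fewer cells making a transcript and less transcript per cell cannot be told apart.

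Several libraries stood apart before any treatment was compared. At 24 h, the unnumbered library was above all 3 numbered libraries for 8 of the 9 testable genes in control, Sal and S + D cells and for 6 of 9 in Das cells. For FOS it exceeded the mean of the numbered libraries 2.23-fold in control, 3.55-fold in Sal, 5.26-fold in Das and 7.71-fold in S + D cells. At 72 h the pattern was mixed: in control cells the unnumbered library was above the others for 1 gene and below them for 6. The deviations of the unnumbered libraries from their group means correlated across all genes with r of 0.614 to 0.692 among the 24 h conditions and 0.532 to 0.626 at 72 h, as a description. Their cause was not tested, and results over all libraries are therefore joined by those over the 12 numbered libraries of each time point wherever a call against control differs between them.

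**Figure D1:**
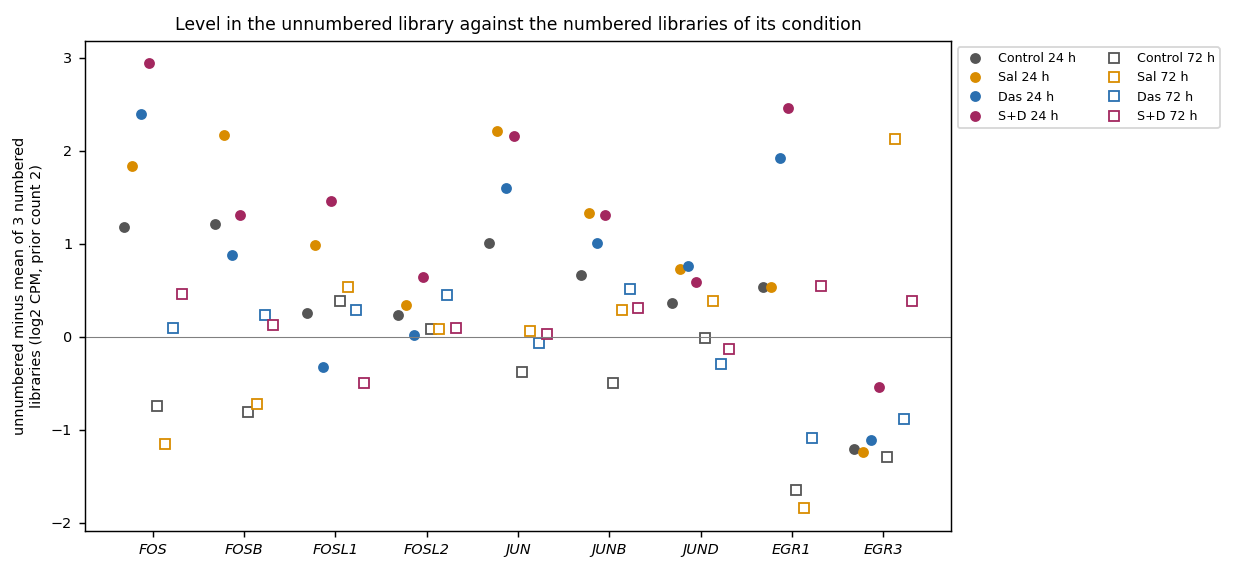
Deviation of the unnumbered library from the mean of the numbered libraries of its condition (log2 CPM, vertical axis) for each gene (horizontal axis), with filled circles for 24 h and open squares for 72 h, coloured by treatment. Most circles lie above 0 at 24 h, FOS, EGR1, JUN and FOSB furthest, whereas the squares lie on both sides of 0.

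The immediate early genes had a larger median spread than all genes in every condition when all 4 libraries were used. The gap was smallest with S + D at 72 h (median SD of log2 CPM 0.27 against 0.24). Over the numbered Sal libraries at 72 h the median was below that over all genes (0.125 against 0.155). At 24 h the median SD of the immediate early genes over all 4 libraries was 0.34 in control cells (0.17 over all genes) and 0.66 in S + D cells (0.23 over all genes). Among numbered libraries alone these values were 0.14 (0.08 over all genes) and 0.12 (0.08), so much of the 24 h spread lay in 1 library per condition. Das cells at 72 h were the exception, with a median SD of 0.54 over the numbered libraries against 0.24 over all genes.

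That exception was carried by Das 72 h replicate 3, which was nearer to the numbered 24 h Das libraries than to the other Das 72 h libraries. Of the 10 genes, 2 lay within the range of the other Das 72 h libraries and 6 within the range of the Das 24 h libraries. Nearer to the numbered Das 24 h mean than to the mean of all other Das 72 h libraries, the unnumbered one included, were 8 of 9. Over 17227 genes, its root mean square log2 difference was 0.570 to 0.601 from the numbered Das 24 h libraries and 0.673 to 0.721 from the other 2 numbered Das 72 h libraries, which differed from each other by 0.370. Over the 9 testable genes the same distances were 0.531 to 0.629 and 1.35 to 1.42. The unnumbered Das 24 h library was not near, at 0.790 over all genes and 1.27 over the testable ones. From the numbered control 72 h libraries replicate 3 differed by 0.649 to 0.686 over all genes, and by 2.70 to 2.92 over the testable ones. FOSB (2.25 CPM), FOSL1 (0.219 CPM) and FOSL2 (92.5 CPM) lay below every Das 24 h library. The label was kept, and the Das 72 h values whose call against control changes without this library are given both ways.

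**Figure D2:**
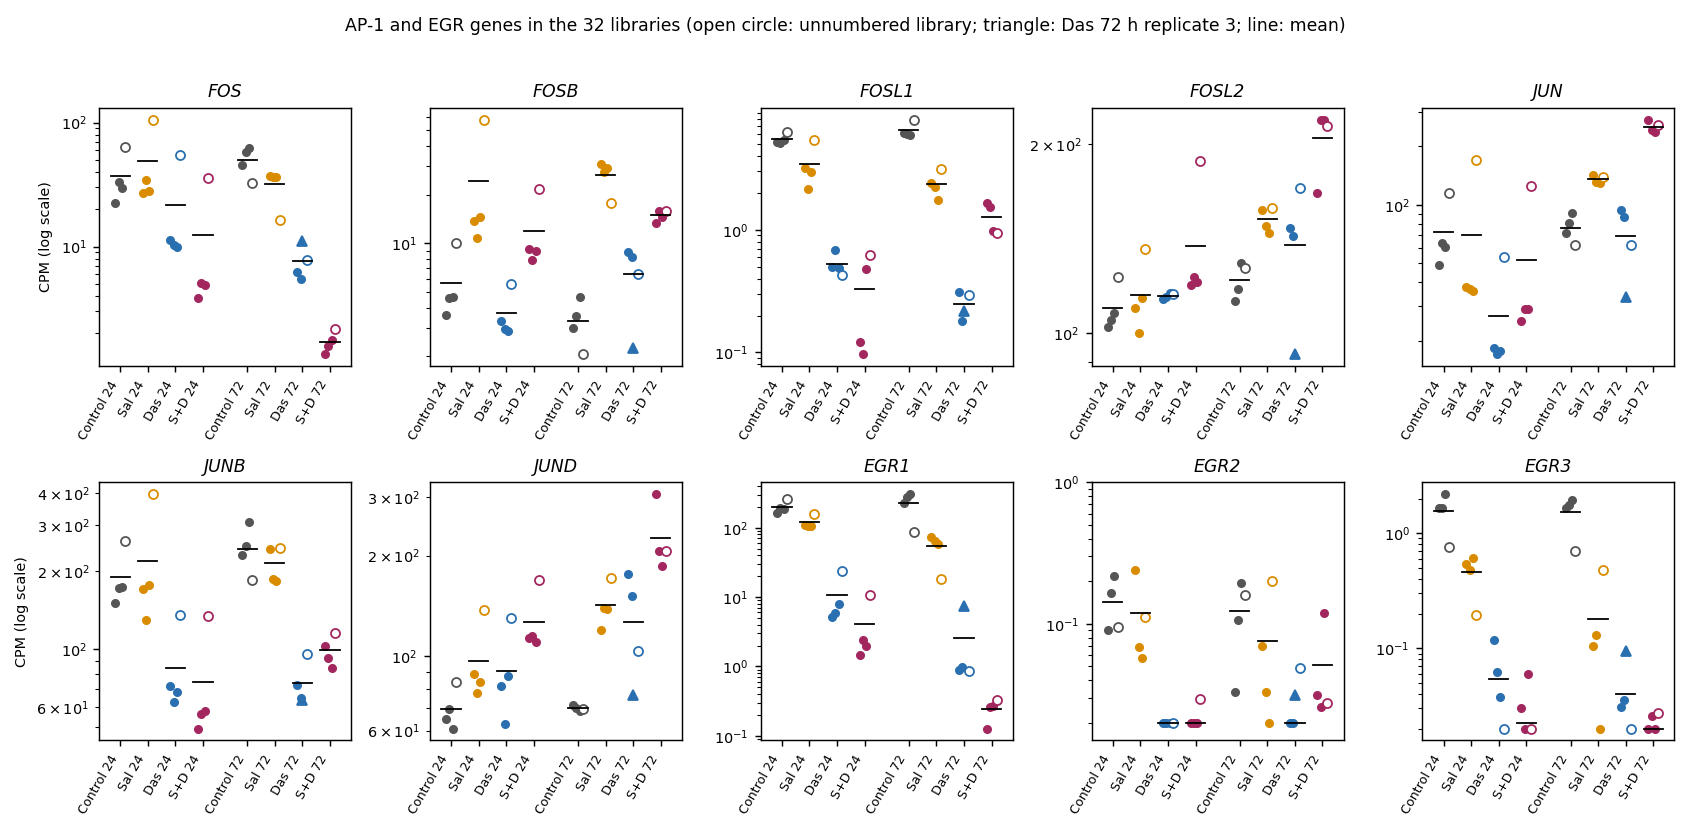
CPM on a log axis in every library for each of the 10 genes, by condition. Filled circles are numbered libraries, open circles unnumbered ones, the triangle is Das 72 h replicate 3, lines are group means, and a count of 0 is drawn at 0.02 CPM. EGR1, FOS and FOSL1 drop in the Das and S + D columns, while JUN, JUND and FOSB stand higher in S + D at 72 h.

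EGR1 is induced by growth factors and is among the most strongly transcribed genes of the ERK response. It was high in untreated MDA-MB-468 cells, somewhat lower with Sal, and nearly gone with S + D at 72 h. In control cells at 72 h it measured 227, 281 and 304 CPM in replicates 1 to 3 and 85.6 CPM in the unnumbered library. With Sal it measured 73.4, 65.1, 58.5 and 18.1 CPM, in the same order. With Das it measured 0.898, 0.966, 7.50 and 0.857 CPM, and with S + D 0.126, 0.259, 0.267 and 0.331 CPM, which were 4 to 12 counts per library. No treated group overlapped the control, and no S + D library overlapped a Das library. Every adjusted p given here comes from the quasi-likelihood F test of edgeR, adjusted by the Benjamini-Hochberg method over all genes tested. The log2 fold change of EGR1 (± SE, n = 4) was -2.07 ± 0.55 under Sal (edgeR adjusted p = 0.00334), -6.48 ± 0.69 under Das (adjusted p = 4.38e-06) and -9.80 ± 0.86 under S + D (adjusted p = 5.7e-08). Without Das 72 h replicate 3 the Das value was -7.95 (adjusted p = 4.3e-08). The Sal call was near the threshold, since leaving out control replicate 2 or 3 gave adjusted p = 0.0106 and 0.0114. Over all 8 fits that left out 1 library its log2 fold change stayed between -2.35 and -1.79.

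The same order held at 24 h, with smaller differences. EGR1 measured 161, 191, 189 and 261 CPM in control, 110, 107, 107 and 156 CPM under Sal, 5.09, 5.81, 7.97 and 23.6 CPM under Das, and 1.46, 2.43, 1.95 and 10.7 CPM with S + D (replicates 1 to 3, then unnumbered). The unnumbered library was the highest of each group, and each treated group lay wholly below the control. The log2 fold change was -4.22 ± 0.58 with Das (adjusted p = 7.31e-05) and -5.57 ± 0.63 with S + D (adjusted p = 3.29e-06). With Sal it was -0.76 ± 0.51 (adjusted p = 0.367) over all libraries and -0.75 ± 0.09 (adjusted p = 5.12e-06) over the numbered ones, the same size with a narrower spread.

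EGR3, a relative of EGR1 that EGR1 and ERK signaling can induce, was expressed at a low level and fell with every treatment at 72 h. Its counts at 72 h were 50, 67, 70 and 26 in control, 3, 4, 0 and 19 under Sal, 1, 1, 3 and 0 under Das, and 0, 1, 0 and 1 under S + D (replicates 1 to 3, then unnumbered). No treated library reached the lowest control library. Das and S + D were at or under a floor of 3 counts per library, which makes EGR3 at least 16.5-fold lower with Das (adjusted p = 7.55e-05) and at least 17.7-fold lower with S + D (adjusted p = 3.89e-06), as a counting limit only. With Sal the log2 fold change was -2.96 ± 0.58 (adjusted p = 0.000265), and -4.44 (adjusted p = 3.17e-06) over the numbered libraries, since the unnumbered Sal library held 19 of the 26 counts of its group. At 24 h EGR3 averaged 1.56 ± 0.593 CPM (SD, n = 4) in control cells and was at least 17.1-fold lower with S + D (adjusted p = 4.18e-06). With Das at 24 h, 0 to 4 counts were found per library against 32 to 70 in control (adjusted p = 2.86e-05), and with Sal 7 to 21 (adjusted p = 0.0122, and 3.03e-05 over the numbered libraries). A part of its exons, 164 bases, is shared with a gene on the opposite strand, and reads of the 2 cannot be separated if strand was not used in counting, which is not given in the sources used here.

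EGR2, the third EGR gene, was near the limit of detection with 0 to 8 counts per library and did not pass the filter on low counts. Control libraries held 3 to 7 counts at 24 h, Das libraries 0 in each of 4, and S + D libraries 0, 0, 0 and 1. A 2-sided exact permutation test on log2 CPM gave p = 0.0286 for both, the smallest that 70 splits of 4 against 4 allow. At 72 h control libraries held 1 to 7 counts, and the exact permutation p was 0.371 for Sal, 0.0571 for Das and 0.143 for S + D. A difference in EGR2 at 72 h was not detectable at this depth, and its Sal value at 24 h did not differ beyond the spread either (exact permutation p = 0.6).

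FOS, the founding AP-1 subunit with a very short-lived mRNA, fell with Das and furthest with S + D at 72 h. Control cells at 72 h gave 45.6, 57.7, 62.6 and 32.6 CPM, Sal 37.3, 36.5, 36.7 and 16.5 CPM, Das 6.25, 5.51, 11.2 and 7.78 CPM, and S + D 1.36, 1.58, 1.75 and 2.15 CPM (replicates 1 to 3, then unnumbered). Control and Sal libraries overlapped, Das libraries lay below both, and S + D libraries lay below all others. The log2 fold change was -2.70 ± 0.28 with Das (adjusted p = 3.02e-06) and -4.86 ± 0.32 with S + D (adjusted p = 2.87e-09), while with Sal it was -0.66 ± 0.26 (adjusted p = 0.035), short of the threshold of 0.01.

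At 24 h the FOS values depended on which libraries were read. The numbered libraries held 22.4 to 33.0 CPM in control, 27.1 to 34.3 CPM with Sal, 9.85 to 11.4 CPM with Das and 3.82 to 5.11 CPM with S + D, against 63.2, 106, 55.3 and 35.5 CPM in the unnumbered libraries. The unnumbered S + D library was thus above every numbered control library. Over all libraries the log2 fold change was -0.76 ± 0.74 with Das (adjusted p = 0.519) and -1.57 ± 0.76 with S + D (adjusted p = 0.103). The numbered libraries alone gave -1.42 ± 0.13 for Das (adjusted p = 6.22e-08) and -2.62 ± 0.15 for S + D (adjusted p = 2.09e-11). Leaving out only the unnumbered S + D library gave -2.98 (adjusted p = 0.00273).

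FOSB differed from FOS in direction, rising with Sal and with S + D. FOSB is a second immediate early FOS protein, whose truncated splice form is long-lived, and the counts here do not separate the forms. At 72 h it measured 3.01, 3.54, 4.65 and 2.06 CPM in control, 30.9, 27.6, 29.1 and 17.6 CPM under Sal, 8.79, 8.27, 2.25 and 6.46 CPM under Das, and 13.4, 15.9, 14.6 and 15.9 CPM with S + D (replicates 1 to 3, then unnumbered). Sal and S + D libraries lay above all controls, and Das libraries did so except replicate 3. The log2 fold change was 2.97 ± 0.33 with Sal (adjusted p = 6.84e-07), 2.17 ± 0.32 with S + D (adjusted p = 1.41e-05) and 0.95 ± 0.32 with Das (adjusted p = 0.0295). Without Das 72 h replicate 3 the Das value was 1.25 (adjusted p = 0.000438). At 24 h FOSB was higher in all 4 Sal libraries, 10.8 to 14.5 CPM in the numbered ones and 58.2 CPM in the unnumbered one, than in the control libraries, 3.59 to 4.68 and 9.97 CPM (log2 fold change 2.05 ± 0.51, adjusted p = 0.0135, and 1.59 ± 0.12, adjusted p = 1.39e-08, over the numbered libraries). With Das at 24 h it was at -0.62 (adjusted p = 0.439) over all libraries and at -0.48 (adjusted p = 0.00974) over the numbered ones. With S + D at 24 h, FOSB measured 7.90 to 9.16 CPM in the numbered libraries and 21.6 CPM in the unnumbered one (1.07 ± 0.51, adjusted p = 0.0964, and 1.01 ± 0.13, adjusted p = 1.13e-06, over the numbered libraries).

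FOSL1, which encodes FRA-1, was the FOS family gene that fell furthest with Das alone, and it was higher with S + D than with Das at 72 h. The 72 h values were 6.21, 6.001, 5.96 and 7.94 CPM in control, 2.42, 2.23, 1.76 and 3.11 CPM with Sal, 0.310, 0.179, 0.219 and 0.294 CPM with Das, and 1.64, 1.53, 0.980 and 0.938 CPM with S + D (replicates 1 to 3, then unnumbered). The 4 groups did not overlap, and their order was control, Sal, S + D and Das. Das libraries held 5 to 12 counts and S + D libraries 33 to 59. Sal gave a log2 fold change of -1.46 ± 0.22 (adjusted p = 1.97e-05), Das -4.68 ± 0.28 (adjusted p = 4.05e-09) and S + D -2.36 ± 0.23 (adjusted p = 1.72e-07). At 24 h the order of the last 2 was the other way, with 0.427 to 0.688 CPM in Das and 0.0971 to 0.620 CPM in S + D cells, and these ranges overlapped. FOSL1 fell by 3.38 ± 0.39 with Das (adjusted p = 1.26e-05) and by 4.00 ± 0.41 with S + D (adjusted p = 1.12e-06) at 24 h. With Sal at 24 h it was at -0.70 ± 0.33 (adjusted p = 0.176), and at -0.92 ± 0.19 (adjusted p = 0.000912) over the numbered libraries.

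FOSL2, which encodes FRA-2, had the largest mean share of the FOS family over all libraries in each of the 8 conditions. FOS led in control cells at 72 h when only the numbered libraries were averaged (45.6% against 44.1%). These shares divide CPM by the summed length of all annotated exons, 7162 bases for FOSL2 and 3186 for FOS. Which forms the cells made was not determined, and the order of the 2 genes can depend on the length used. The fold changes of FOSL2 at 72 h were small. It averaged 121 ± 7.83 CPM (SD, n = 4) in control cells at 72 h, 152 ± 6.65 CPM with Sal, 138 ± 32.7 CPM with Das and 204 ± 24.9 CPM with S + D. The S + D libraries lay above the other groups except that replicate 1, at 167 CPM, lay below the unnumbered Das library, at 170 CPM. It rose by 0.75 ± 0.15 on the log2 scale with S + D (adjusted p = 0.000238), while the values for Sal (0.31, adjusted p = 0.0716) and Das (0.17, adjusted p = 0.378, and 0.34, adjusted p = 0.015, without Das 72 h replicate 3) missed the threshold. At 24 h the group means ran from 109 to 138 CPM and no treatment passed the test over all libraries. Numbered libraries alone gave 0.20 ± 0.05 for S + D at 24 h (adjusted p = 0.00136).

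JUN, the most strongly transforming JUN protein and a target of JNK, rose at 72 h with Sal and more with S + D but not with Das. It measured 71.7, 80.7, 91.4 and 62.2 CPM in control, 143, 132, 129 and 140 CPM under Sal, 93.9, 86.8, 33.6 and 61.9 CPM under Das, and 275, 244, 237 and 256 CPM under S + D (replicates 1 to 3, then unnumbered). S + D libraries lay above Sal libraries and those above control, while Das libraries lay on both sides of the control range. JUN stood at a log2 fold change of 0.82 ± 0.22 under Sal (adjusted p = 0.00309), -0.16 ± 0.22 under Das (adjusted p = 0.599) and 1.72 ± 0.22 under S + D (adjusted p = 2.87e-06). The Sal call was lost over the numbered libraries (0.71, adjusted p = 0.0259) and on leaving out control replicate 1 (adjusted p = 0.0104) or the unnumbered control (adjusted p = 0.0123). The Das value was 0.09 (adjusted p = 0.655) without Das 72 h replicate 3.

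At 24 h the numbered libraries put JUN lower in every treatment. They held 49.2 to 63.9 CPM in control, 35.9 to 37.9 CPM with Sal, 17.1 to 18.2 CPM with Das and 25.3 to 29.2 CPM with S + D, whereas the unnumbered libraries held 115, 171, 53.9 and 124 CPM. These libraries gave a log2 fold change of -0.66 ± 0.08 for Sal (adjusted p = 5.69e-06), -1.69 ± 0.09 for Das (adjusted p = 2.04e-11) and -1.06 ± 0.08 for S + D (adjusted p = 2.69e-09). Over all libraries none of the 3 passed the test: the values were -0.07 (adjusted p = 0.965), -1.42 (adjusted p = 0.113) and -0.46 (adjusted p = 0.573). The unnumbered Sal library was above the unnumbered control, whereas all numbered Sal libraries were below all numbered controls.

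JUNB, which can oppose JUN at shared sites, fell with Das at 72 h, from 232, 250, 310 and 185 CPM in control to 72.9, 64.6, 63.5 and 95.6 CPM (replicates 1 to 3, then unnumbered). With S + D it measured 103, 92.8, 84.8 and 116 CPM, and with Sal 243, 187, 183 and 247 CPM. Das and S + D libraries lay below all control and Sal libraries, which overlapped each other. JUNB fell by 1.73 ± 0.17 with Das (adjusted p = 2.18e-06) and by 1.30 ± 0.17 with S + D (adjusted p = 3.9e-06), and with Sal it was at -0.20 ± 0.17 (adjusted p = 0.321). At 24 h it averaged 189 ± 49.1 CPM in control, 84.7 ± 34.1 CPM with Das and 74.7 ± 40.2 CPM with S + D (SD, n = 4). The Das value was -1.15 (adjusted p = 0.0335) over all libraries and -1.27 (adjusted p = 2.94e-09) over the numbered ones. The S + D value was -1.32 (adjusted p = 0.00858) and -1.60 (adjusted p = 5.43e-11) in the same order. Over all libraries the S + D call was lost on leaving out any of 7 of the 8 libraries (adjusted p of 0.0107 to 0.0310), the exception being the unnumbered S + D library, without which the adjusted p was 0.000803. Of its exon bases 14.2% are shared with HOOK2 on the opposite strand, which the counting may not separate.

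JUND, the JUN protein that resting cells usually keep, rose with every treatment at 72 h. It measured 71.6, 69.98, 68.6 and 69.6 CPM in control, 120, 140, 138 and 172 CPM with Sal, 176, 151, 76.7 and 104 CPM with Das, and 305, 206, 187 and 207 CPM with S + D (replicates 1 to 3, then unnumbered). All treated libraries lay above all controls, Das 72 h replicate 3 by the least. JUND rose by 1.01 ± 0.21 on the log2 scale under Sal (adjusted p = 0.000413), by 0.85 ± 0.21 under Das (adjusted p = 0.00517) and by 1.69 ± 0.21 under S + D (adjusted p = 2.49e-06). The Das call held in only 2 of 8 fits that each left out 1 library, those without Das replicate 3 or the unnumbered Das library. It missed the threshold without control replicate 1, 2 or 3 (adjusted p = 0.0132, 0.0135 and 0.0166), the unnumbered control (0.0127) or Das replicate 1 or 2 (0.0247 and 0.0196). At 24 h JUND rose with S + D, from 69.8 ± 10.0 to 127 ± 28.2 CPM (SD, n = 4; log2 fold change 0.88 ± 0.22, adjusted p = 0.00343). That call was lost without control replicate 1, 2 or 3 (adjusted p = 0.0141, 0.0123 and 0.0162) or the unnumbered S + D library (0.0128). Over the numbered libraries the S + D value was 0.79 (adjusted p = 3.08e-07), and JUND was also called with Sal at 24 h (0.35, adjusted p = 0.00495), where all libraries gave 0.45 (adjusted p = 0.187).

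**Figure D3:**
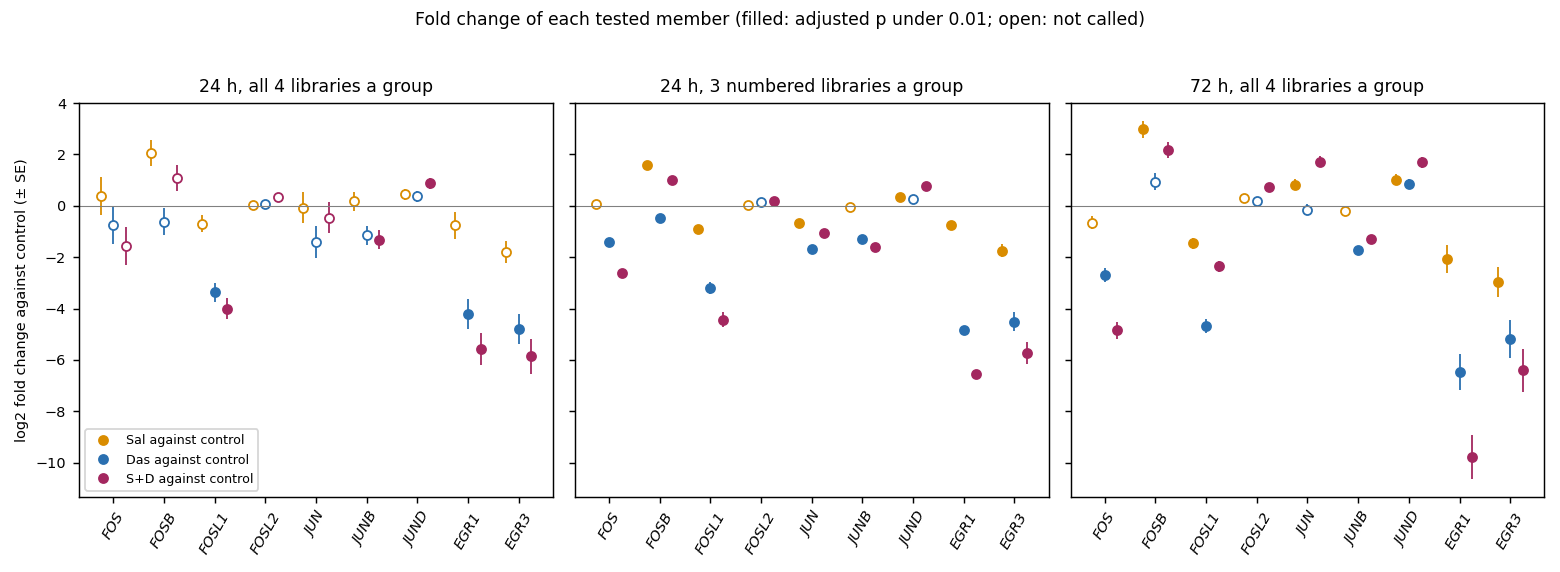
Log2 fold change against the control of the same time point (vertical axis) with its SE for the 9 testable genes (horizontal axis). Panels show 24 h over all libraries, 24 h over numbered libraries, and 72 h over all libraries. Filled symbols passed the test at an adjusted p under 0.01. More symbols are filled at 24 h when the unnumbered libraries are left out, and at 72 h all 9 S + D symbols are filled.

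Counted over the 9 testable genes, S + D at 72 h changed each of them, 4 upward (FOSB, FOSL2, JUN and JUND) and 5 downward (FOS, FOSL1, JUNB, EGR1 and EGR3). Over all genes, S + D at 72 h called 27% higher and 27.9% lower. Sal at 72 h called 3 higher (FOSB, JUN and JUND; 26.3% of all genes) and 3 lower (EGR1, EGR3 and FOSL1; 26.8%), and these shares are near the background. Das at 72 h called 1 higher (JUND; 10.5%) and 5 lower (EGR1, EGR3, FOS, FOSL1 and JUNB; 9.36%). Leaving out Das 72 h replicate 3 gave 2 higher, FOSB added, and 5 lower. Over the numbered libraries the counts at 72 h were 2 higher and 3 lower with Sal (27.8% and 29.6% of all genes), 1 and 5 with Das (11.2% and 11.5%), and 4 and 5 with S + D (28.4% and 29.5%).

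At 24 h the count depended on the unnumbered libraries. Over all libraries Sal called 0 genes in edgeR, with 3 at an unadjusted p under 0.05 and 2 in DESeq2 (4.55% of all genes were called higher and 2.23% lower). FOSB passed without Sal replicate 2 (adjusted p = 0.00866) and EGR3 without the unnumbered control (adjusted p = 0.00683). Das called 0 higher and 3 lower, EGR1, EGR3 and FOSL1 (6.99% and 6.88%), and S + D called 1 higher, JUND, and 4 lower, EGR1, EGR3, FOSL1 and JUNB (17.1% and 16.5%). Without the unnumbered libraries the counts were 2 higher and 4 lower with Sal (12.7% and 10.9% of all genes), 0 and 7 with Das (20.6% and 18.7%), and 3 and 6 with S + D (28.7% and 29.4%). The genes added were thus met by a higher background as well.

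The comparison of S + D with each single drug asked how the pair differed from its parts. Against Sal at 72 h, S + D was lower for EGR1 (log2 fold change -7.72 ± 0.82, adjusted p = 2.24e-05), FOS (-4.20 ± 0.31, adjusted p = 3.23e-07) and JUNB (-1.11 ± 0.17, adjusted p = 0.000694), and higher for none, with 1.42% of all genes higher and 1.59% lower. JUN stood higher in every S + D library than in every Sal library but missed the threshold (0.91 ± 0.22, adjusted p = 0.015). Against Das at 72 h, S + D was higher for JUN (1.88 ± 0.22, adjusted p = 5.09e-06), FOSL1 (2.32 ± 0.28, adjusted p = 7.32e-06), JUND (0.84 ± 0.21, adjusted p = 0.00336), FOSB (1.22 ± 0.31, adjusted p = 0.00381) and FOSL2 (0.57 ± 0.15, adjusted p = 0.00402). It was lower for FOS (-2.16 ± 0.30, adjusted p = 2.19e-05) and EGR1 (-3.32 ± 0.86, adjusted p = 0.0044), with 14.3% of all genes higher and 17.7% lower.

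Several of the calls against Das missed the threshold when 1 library was left out. The EGR1 difference went to -1.81 (adjusted p = 0.0582) without Das 72 h replicate 3. It also missed the threshold without any 1 of the S + D libraries (adjusted p of 0.0104 to 0.0172), with its size little changed (-3.13 to -3.47). JUND was lost without S + D replicate 1 (adjusted p = 0.0171) and over the numbered libraries (adjusted p = 0.0145), and FOSL2 without S + D replicate 2 or 3 (adjusted p = 0.0130 and 0.0127). JUNB was called over the numbered libraries (0.48, adjusted p = 0.00996) but not over all of them (0.43, adjusted p = 0.0474), which again made 5 higher and 2 lower (16.8% and 19.8% of all genes). At 24 h, S + D against Sal called 0 higher and 4 lower, EGR1, EGR3, FOSL1 and JUNB (5.83% and 7.06% of all genes), and JUNB (adjusted p = 0.00856) was lost without Sal replicate 1 or 3, the unnumbered Sal library, or a numbered S + D library (adjusted p of 0.0116 to 0.0335). Over the numbered libraries all 9 genes were called, 2 higher, FOSL2 (0.17, adjusted p = 0.0065) and JUND (0.44, adjusted p = 0.00038), and 7 lower, against 18.4% and 23.0% of all genes. The 3 lower genes added were FOS (-2.69, adjusted p = 4.56e-11), FOSB (-0.58, adjusted p = 0.000269) and JUN (-0.40, adjusted p = 0.000653), and JUNB was at -1.54 (adjusted p = 2.73e-10). S + D against Das called 0 genes at 24 h in edgeR over all libraries, with 4 at an unadjusted p under 0.05 and 1 in DESeq2 (4.03% higher and 4.46% lower). Over the numbered libraries it called 3 higher, FOSB, JUN and JUND, and 3 lower, EGR1, FOS and JUNB (13.5% and 19.4% of all genes). Leaving out the unnumbered S + D 24 h library alone was enough for EGR1 to pass against Das (-2.45, adjusted p = 0.00292) and for FOS to pass against Sal (-3.36, adjusted p = 0.00293).

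**Figure D4:**
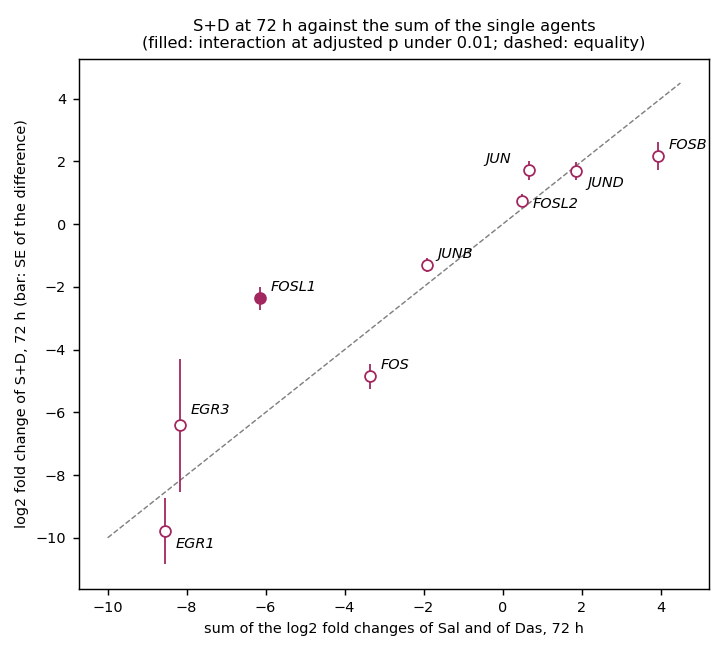
Log2 fold change with S + D at 72 h (vertical axis) against the sum of the log2 fold changes with Sal and with Das (horizontal axis) for each of the 9 testable genes, with the SE of the difference as a bar and a diagonal where both are equal. FOSL1 is filled because its difference passed the test, and it lies above the diagonal.

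The interaction term compared the S + D value with the sum of the 2 single-drug values on the log2 scale. At 72 h FOSL1 was the 1 gene that passed the test (7.52% of all genes passed in either direction): the single drugs summed to -6.14 and S + D was at -2.36, a difference of 3.78 ± 0.36 (adjusted p = 1.07e-05), and it passed in all 16 fits that left out 1 library. FOS at -1.50 ± 0.39 (adjusted p = 0.0135) and FOSB at -1.75 ± 0.44 (adjusted p = 0.011) fell short, and JUN was at 1.07 ± 0.30 (adjusted p = 0.0214). The numbered libraries gave 3 genes: FOSL1, JUNB (0.87, adjusted p = 0.00586) and FOS (-1.69, adjusted p = 0.00233), against 12.9% of all genes. Without Das 72 h replicate 3 there were also 3: FOSL1, FOSB (-2.04, adjusted p = 0.000175) and JUN (0.83, adjusted p = 0.00477). For EGR1 the value of -1.25 ± 1.05 (adjusted p = 0.44) had an SE too wide to place S + D above or below the sum, and went to 0.23 without that library. At 24 h none passed in edgeR (0.0306% of all genes did), with 0 at an unadjusted p under 0.05 and 0 in DESeq2. Over the numbered libraries JUN (1.29, adjusted p = 2.23e-06), FOS (-1.28, adjusted p = 0.000377) and EGR1 (-0.95, adjusted p = 0.00561) passed, against 5.09% of all genes.

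The change of each response with time was tested over all 32 libraries. The S + D response differed between 72 h and 24 h for 3 genes, EGR1 by -4.18 ± 1.05 (adjusted p = 0.00373), FOS by -3.24 ± 0.88 (adjusted p = 0.00641) and FOSL1 by 1.69 ± 0.46 (adjusted p = 0.00657), against 16.3% of all genes. EGR1 and FOS were thus further below control at 72 h than at 24 h and FOSL1 less far below it. Leaving out the unnumbered S + D 24 h library alone took EGR1 to -3.10 (adjusted p = 0.0192) and FOS to -1.84 (adjusted p = 0.0513), and EGR1 also missed the threshold without S + D 72 h replicate 1 (adjusted p = 0.0104). FOS missed it in 9 of 16 such fits, those without any of the numbered 24 h controls, 72 h control replicate 2 or 3, a numbered S + D 72 h library or the unnumbered S + D 24 h library (adjusted p of 0.0122 to 0.0513). FOSL1 also missed it in 9 of 16, those without 24 h control replicate 3 or the unnumbered one, a numbered 72 h control, or replicate 1 or 2 of S + D at either time (adjusted p of 0.0109 to 0.0216). JUN, at 2.23 ± 0.69, missed it (adjusted p = 0.0156) and passed without that library (3.11, adjusted p = 0.000372). The numbered libraries called 6 genes, EGR1, FOS, FOSL1, FOSL2, JUN and JUND, against 31.5% of all genes.

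For the single drugs, 0 genes passed in edgeR over all libraries for Sal (21.9% of all genes passed, 0 of the 9 at an unadjusted p under 0.05) or for Das (0.226% of all genes passed, 4 of the 9 at an unadjusted p under 0.05). Over the numbered libraries the Sal response differed for FOSB (1.37, adjusted p = 0.00451), JUN (1.38, adjusted p = 0.000492) and EGR3 (-2.67, adjusted p = 0.000441), a count near the background, since 39.3% of all genes were called. The Das response differed there for JUN (1.52, adjusted p = 0.00265) and FOS (-1.42, adjusted p = 0.00145), against 3.56% of all genes. Without Das 72 h replicate 3, over all other libraries, the Das response of EGR1 differed by -3.72 (adjusted p = 0.00697). In control cells, 72 h against 24 h called 0 of the 9 genes (2.76% of all genes, 0 at an unadjusted p under 0.05), while the numbered libraries put FOS 0.96 (adjusted p = 0.000515) and JUNB 0.67 (adjusted p = 0.000605) higher at 72 h, against 7.02% of all genes higher.

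To compare levels between genes, CPM were divided by the summed length of all annotated exons in kilobases, and each gene's share of its family was taken. The order of genes within a family can depend on these lengths, since the forms made were not determined. Within the FOS family, control cells at 72 h divided mainly between FOS (42.1% ± 7.41) and FOSL2 (46.7% ± 5.40, SD, n = 4), with FOSL1 at 9.64% and FOSB at 1.60%. The order of the first 2 depended on the libraries, since the numbered ones averaged 45.6% for FOS and 44.1% for FOSL2. With S + D at 72 h FOSL2 made up 87.9% ± 1.20, FOSB 8.33%, FOSL1 2.14% and FOS 1.65%. The FOS family as a whole summed to 36.6 ± 4.19 CPM per kb in control and 32.4 ± 3.60 CPM per kb with S + D (SD, n = 4), so the make-up moved while the sums lay within about 1 SD of each other. With Das FOSL2 made up 83.2% and FOS 11.3%, and with Sal FOSL2 57.5%, FOS 26.4% and FOSB 12.6%. The family sum was lower with Das, at 23.0 ± 4.43 CPM per kb, and with Sal it was 37.1 ± 3.58 CPM per kb (SD, n = 4). In the numbered libraries FOSL2 made up 87.8% with S + D, 82.2% with Das and 53.8% with Sal.

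**Figure D5:**
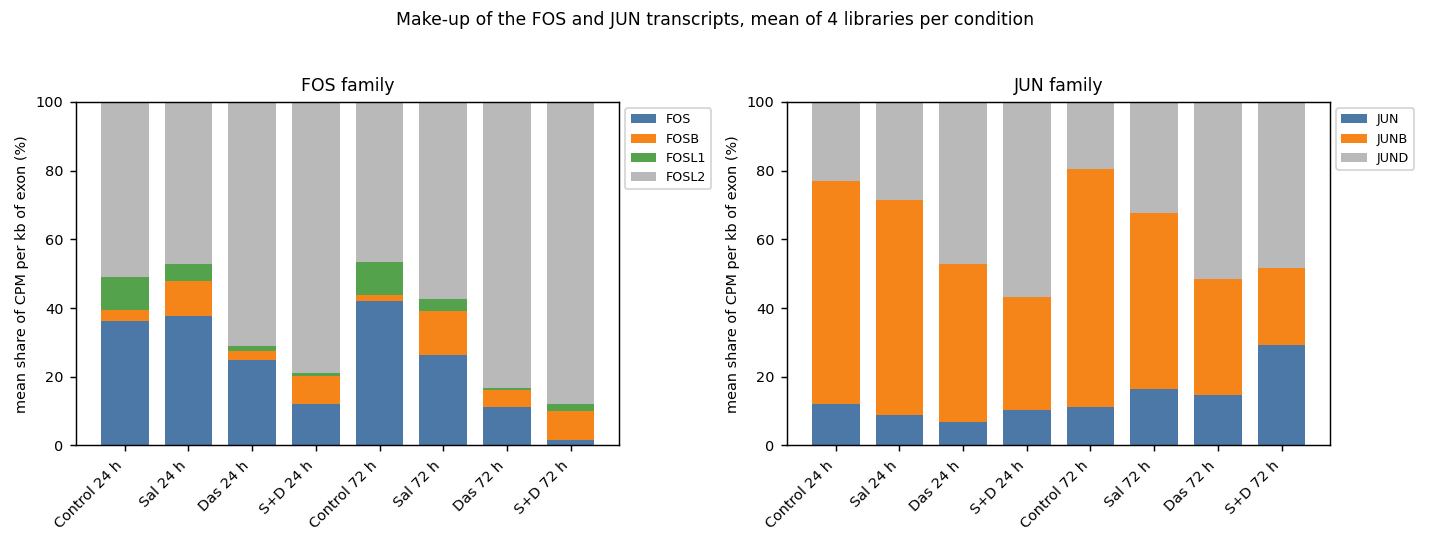
Mean share of each gene in the summed CPM per kb of exon of its family (percent, stacked bars) for the FOS family and the JUN family in the 8 conditions. FOSL2 fills most of the FOS family bar with S + D at 72 h, and JUNB gives way to JUND and JUN in the JUN family bar.

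Within the JUN family, JUNB made up 69.5% ± 3.34 in control cells at 72 h, JUND 19.4% ± 3.31 and JUN 11.1% ± 0.273 (SD, n = 4). With S + D JUND was the largest at 48.2% ± 4.35, followed by JUN at 29.2% ± 2.22 and JUNB at 22.6% ± 2.79. With Das JUND also led, at 51.6%, over JUNB at 33.7% and JUN at 14.7%, whereas with Sal JUNB led at 51.2%. The JUN family sums at 72 h were 191 ± 31.5 CPM per kb in control and 229 ± 25.4 with Sal (SD, n = 4). They were 125 ± 31.1 CPM per kb with Das and 241 ± 35.4 with S + D. The numbered libraries gave the same leaders, JUNB at 70.9% in control and 51.1% with Sal, and JUND at 49.5% with S + D and 54.2% with Das. Among the EGR genes, EGR1 gave at least 98.1% of the summed CPM per kb in every library at 24 h, and as little as 72.7% with S + D at 72 h, where all 3 genes held few counts. These shares are descriptions of mRNA and were not tested, and no protein was measured.

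Within the libraries, EGR1 and FOS varied together (Pearson r = 0.936, Spearman rho 0.867 over 32 libraries, on log2 CPM, as a description). The libraries share treatments, times and replicate labels, so they are not independent points. JUND followed FOSL2 (r = 0.809) and ran against EGR1 (r = -0.69), and JUNB followed FOSL1 (r = 0.872). Among 15630 genes compared, those most like EGR1 were DHTKD1 (r = 0.927), ETV1 (0.924) and GTF3A (0.912). Those most like FOSL1 were PHLDA2 (0.941), KLK8 (0.939) and ETV4 (0.925), most like JUN were ATG16L1 (0.906), SLCO4A1 (0.905) and TCP1 (0.904), and most like FOS were H1-2 (0.895), CCDC24 (0.879) and GTF3A (0.875).

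Other immediate early genes did not move as a block with S + D at 72 h. Of 31 tested outside the AP-1 and EGR families, 8 rose and 12 fell (median log2 fold change -0.11, against 0.01 over all genes), and over the numbered libraries 9 rose and 13 fell. The counts of this and the following lists with S + D at 72 h stand against 27% of all genes higher and 27.9% lower, and 28.4% and 29.5% over the numbered libraries, and nothing particular to a list is read from them. CTGF, a YAP target and matricellular protein, fell from 21.0 ± 1.964 to 0.763 ± 0.0979 CPM (SD, n = 4; log2 fold change -4.78, adjusted p = 4.89e-09). PHLDA1 fell by 3.54 (adjusted p = 1.43e-11) and IER3, an ERK-induced survival gene, by 3.34 (adjusted p = 9.66e-10). NR4A3, an orphan nuclear receptor, rose from 0.360 ± 0.157 to 9.41 ± 1.53 CPM (log2 fold change 4.70, adjusted p = 1.53e-08). ATF3, a stress-induced factor that pairs with JUN, rose by 3.34 on the log2 scale (adjusted p = 2.49e-07), and DUSP1, a phosphatase that inactivates MAP kinases, by 2.72 (adjusted p = 1.19e-06).

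Of 17 tested leucine zipper genes that can pair with FOS or JUN, 6 rose and 4 fell with S + D at 72 h (median -0.19), and over the numbered libraries 5 rose and 5 fell. Besides ATF3, BACH2 rose from 0.399 ± 0.114 to 3.13 ± 0.534 CPM (SD, n = 4; adjusted p = 8.68e-06). BATF fell by 0.78 (adjusted p = 0.00224) and CREB1, the factor of TGACGT elements, by 0.64 on the log2 scale (adjusted p = 0.00889). BATF3 (-1.27, adjusted p = 0.00819) and BATF2 (1.35, adjusted p = 0.003) were called over all libraries but not over the numbered ones (adjusted p = 0.022 and 0.0202). Without Das 72 h replicate 3, a library outside this comparison that enters its estimate of spread, 6 rose and 2 fell.

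Of 25 upstream regulators, 2 rose and 11 fell with S + D at 72 h (median -0.30, against 0.01 over all genes), and over the numbered libraries 1 rose and 11 fell. SRC, a target of dasatinib, fell from 54.8 ± 5.67 to 12.95 ± 0.778 CPM with S + D (SD, n = 4; log2 fold change -2.09, adjusted p = 1.53e-08), to 11.5 ± 1.64 CPM with Sal (-2.27, adjusted p = 1.18e-08) and to 27.8 ± 6.70 CPM with Das (-0.99, adjusted p = 0.000149). ELK3, an SRF partner, fell by 1.76 (adjusted p = 2.32e-07) and MAPK3, which encodes ERK1, by 0.72 with S + D (adjusted p = 7.92e-05). The 2 that rose were ELK4, another SRF partner (0.62, adjusted p = 0.00134), and BRAF (0.46, adjusted p = 0.00837, and 0.0143 over the numbered libraries). Sal alone called 4 higher and 10 lower (26.3% and 26.8% of all genes). Das alone called 0 higher and 2 lower (10.5% and 9.36% of all genes), 3 lower without Das 72 h replicate 3 and 5 lower over the numbered libraries (11.5% of all genes lower).

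Of 11 tested textbook AP-1 targets, 3 rose and 6 fell with S + D at 72 h (median -1.04, against 0.01 over all genes), and over the numbered libraries 4 rose and 6 fell. CCND1, which encodes cyclin D1, fell from 281 ± 4.34 to 17.8 ± 2.37 CPM (SD, n = 4; log2 fold change -3.99, adjusted p = 9.71e-11), further than with Sal (48.8 ± 3.14 CPM) or Das (64.6 ± 23.2 CPM) by group mean. CXCL8, a neutrophil chemokine, fell by 3.02 (adjusted p = 5.67e-05) and PLAU, the urokinase protease, was at -2.53 (adjusted p = 3.24e-06). VIM rose by 1.52 (adjusted p = 3.08e-06) and TIMP1, a protease inhibitor, by 1.31 on the log2 scale (adjusted p = 4.02e-05). MMP9 was near 0 in control cells (0.0137 ± 0.0158 CPM) and at 0.580 ± 0.0835 CPM with S + D (adjusted p = 3.13e-06).

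Of 11 tested EGR targets and corepressors, 3 rose and 6 fell with S + D at 72 h (median -0.87, against 0.01 over all genes), as over the numbered libraries. THBS1 fell by 1.35 (adjusted p = 0.000491), TGFB1 by 1.32 (adjusted p = 0.000689) and PDGFB, a growth factor chain, by 1.23 (adjusted p = 8.6e-07). CDKN1A, the cell cycle inhibitor p21, rose from 42.4 ± 6.69 to 108 ± 18.1 CPM (SD, n = 4; log2 fold change 1.34, adjusted p = 5.61e-05). GADD45A, a DNA damage response gene, rose by 0.94 (adjusted p = 0.000116), and PDGFA by 0.48 on the log2 scale (adjusted p = 0.00966, and 0.0315 over the numbered libraries). Whether any list member is bound by AP-1 or EGR proteins in these cells was not measured.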

How the data were processed

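The deposited table held raw counts per Ensembl gene, which the authors made from single-end 50-base TruSeq reads with bcl2fastq 2.19 and STAR 2.5.2 on GRCh37. Cufflinks 2.1.1 and DESeq2 are named in the submitters' processing notes, and the counting program, its annotation and its use of strand are not given in the sources used here. All 32 columns were matched to samples by name. Genes were tested with edgeR 4.0.16 (R 4.3.3, quasi-likelihood F test, TMM scaling, filterByExpr with a minimum count of 10, Benjamini-Hochberg adjustment over all genes tested, called at an adjusted p under 0.01), on the 16 libraries of a time point, giving 16357 genes at 24 h and 16682 at 72 h, or on all 32 libraries for time (17227 genes). SE is the model's standard error of the log2 fold change. EGR2, under the filter, was tested by an exact permutation test. Replicates are labelled biological, and the study describes the 4 of a condition as independent experiments on this 1 cell line. CPM used the deposited column totals scaled by TMM factors over all 32 libraries. Levels per kb used the summed length of all annotated exons of a gene, over all its forms, in a GRCh37 annotation. At 25692561 to 42769687 counts per library, 1 count is 0.0234 to 0.0389 CPM before TMM scaling, and floors of 3 counts cover counting error only. The members and lists were chosen with earlier results of these data known. Named list genes were the 3 called in each direction with the largest change with S + D at 72 h. Alternatives were other thresholds, DESeq2 1.42.0, RLE scaling, no filter, other sets of libraries, a term for the unnumbered libraries, a replicate block and leaving out each library. Scripts were tested on simulated data. 1 marker of another cell type is not reported here.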

Additional observations from a re-analysis of the deposited data

Results flagged for a closer look

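Of 72 groups of 4 libraries (9 genes in 8 conditions), 21 held a library whose gap to the nearest of the others was too large a part of the range by Dixon's 95% limit, where chance flags about 5% of groups. The unnumbered library was the one apart in 19 of the 21, and 17 of the 21 were at 24 h. The causes were not tested.

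In Sal cells at 24 h, the unnumbered library held FOS at 106 CPM (others 27.1 to 34.3), FOSB at 58.2 (10.8 to 14.5), JUN at 171 (35.9 to 37.9) and EGR1 at 156 (107 to 110). In Das cells at 24 h it held FOS at 55.3 CPM (9.85 to 11.4), FOSB at 5.62 (2.86 to 3.30), JUN at 53.9 (17.1 to 18.2), JUNB at 136 (62.6 to 72.0) and EGR1 at 23.6 (5.09 to 7.97). In S + D cells at 24 h it held FOS at 35.5 CPM (3.82 to 5.11), FOSB at 21.6 (7.90 to 9.16), FOSL2 at 188 (119 to 123), JUN at 124 (25.3 to 29.2), JUNB at 135 (49.4 to 58.0), JUND at 169 (110 to 115) and EGR1 at 10.7 (1.46 to 2.43). In control cells at 24 h it held FOSB at 9.97 CPM (3.59 to 4.68).

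At 72 h the unnumbered library held FOS at 16.5 CPM with Sal (36.5 to 37.3 in the others), the 1 case of the 19 in which it was low, and FOSL1 at 7.94 CPM in control cells (5.96 to 6.21). Das replicate 3 held EGR1 at 7.50 CPM (0.857 to 0.966), and S + D replicate 1 held FOSL2 at 167 CPM (213 to 219).

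The response to S + D differed between 72 h and 24 h on the log2 scale, by an interaction term, for EGR1 (-4.18), FOS (-3.24) and FOSL1 (1.69), with the single-library losses given above.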

How the results depend on the processing

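Of 144 values for 9 genes in 16 comparisons, 47 passed the test, and none of those 47 changed direction under any of the 9 other settings or on leaving out 1 library. Unless a value shows it, the cause of a change below was not tested. With the numbered libraries only, the genes called numbered 6 for Sal, 7 for Das, 9 for S + D, 9 for S + D against Sal, 6 for S + D against Das and 3 for the interaction at 24 h, 3 for the interaction at 72 h, 3, 2 and 6 for the responses to Sal, Das and S + D over time, and 2 for control over time. Without Das 72 h replicate 3 as well, chosen after seeing the data, they numbered 7 for S + D against Sal and 5 for the interaction at 72 h, and 5, 6, 7 and 4 for those 4 comparisons over time. Sal against control at 72 h then called 3 higher and 5 lower, although that library enters only its estimate of spread. The share of all genes called in that setting is not given here. A term for the unnumbered libraries gave 3, 7, 9, 8, 5 and 1 in the same order at 24 h, and at 72 h 5 for S + D against Sal and 3 for the interaction.

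The replicate block gave 3, 7, 9, 7 and 5 for the first 5 comparisons at 24 h, and at 72 h 5 for S + D against Sal and 4 for the interaction. The numbers do not pair the libraries, since deviations of equally numbered libraries correlated between -0.232 and 0.112, against 0.532 to 0.692 for the unnumbered ones, and a gain under the block can come from those alone. The 0.05 threshold gave 2 for Sal and 1 for S + D against Das at 24 h, 5 for S + D against Sal and 4 for the interaction at 72 h, and 5 for the S + D response over time. A log2 fold change above 1.5 in addition left 3 for S + D at 24 h, 3 for Sal at 72 h and 4 for S + D against Das at 72 h. DESeq2 gave 2 for Sal and 1 for S + D against Das at 24 h, and 5 for S + D against Sal and 4 for the interaction at 72 h. No filter gave 1 for Sal at 24 h and 4 for the interaction at 72 h, and all 32 libraries gave 1 for Sal at 24 h. Only the groups compared gave 2 for S + D against Sal at 24 h, 4 for S + D against Das at 72 h and 5 for the S + D response.

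Uncalled values that changed sign were JUNB with Sal at 24 h (-0.060, numbered libraries), FOSL1 in the 24 h interaction (-0.33, numbered libraries), FOSL2 in the Das response (-0.037, numbered libraries), and, numbered libraries without Das 72 h replicate 3, JUN with Das at 72 h (0.14) and EGR1 in the 72 h interaction (0.019). Leaving out 1 library gave 0 to 1 gene for Sal at 24 h, 3 to 5 for S + D at 24 h, 0 to 1 for S + D against Das at 24 h, 1 to 3 for the 72 h interaction, 0 to 1 for the Sal and Das responses and 0 to 3 for the S + D response. It turned the sign of these uncalled log2 values: with Sal at 24 h FOSL2 (-0.030 to 0.12), FOS (-0.32 to 0.78), JUNB (-0.25 to 0.39) and JUN (-0.98 to 0.27), with S + D against Sal JUN (-1.29 to 0.50), and with S + D against Das FOS (-2.23 to 0.22) and JUNB (-0.62 to 0.13). In the 24 h interaction they were EGR1 (-1.69 to 0.14), FOSB (-0.82 to 0.50), JUND (-0.11 to 0.24), JUNB (-0.80 to 0.061), FOSL1 (-0.42 to 0.36) and EGR3 (-0.21 to 1.45), and at 72 h JUN with Das (-0.33 to 0.088), EGR1 (-1.56 to 0.23) and JUND (-0.35 to 0.031) in the interaction. Over time they were JUNB with Sal (-0.57 to 0.088), FOSL2 (-0.032 to 0.28) and EGR3 (-1.20 to 0.34) with Das, JUNB (-0.13 to 0.50) and EGR3 (-0.96 to 0.41) with S + D, and EGR1 (-0.012 to 0.43), JUND (-0.054 to 0.098), JUN (-0.063 to 0.40) and EGR3 (-0.28 to 0.20) in control cells. Depth limits EGR2 and the treated EGR3 values, at 0 to 8 and 0 to 21 counts.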
